A study of Bos taurus with 30 samples.

Results

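CCN2, also written CTGF, and the matrix Gla protein gene MGP were followed as ratios between the 2 tissues of the bovine uterine lining. They were taken by symbol from the platform annotation. Each had 1 probe, so 2 of 13824 probes, and 2 of the 8073 genes named by a single-symbol probe, are described, and each probe was printed as 2 adjacent spots, which were averaged. Their gene IDs are 281103 for CCN2 and 282660 for MGP. Both genes were selected on their group mean ratios and their side relative to collagen in earlier results of these arrays, so those means and sides are descriptions and carry no test. The arrays carried caruncular endometrium, the aglandular site of placental attachment, against intercaruncular endometrium, the glandular tissue between those sites, from the same animal. The animals were 5 with a pregnancy from somatic cell nuclear transfer (SCNT, cloning), 5 with a transferred embryo fertilised in vitro (IVF-ET) and 5 with a pregnancy from artificial insemination (AI). All 15 animals are named in the labels by tissue, animal and way of conception, and the stage of pregnancy is not given there. Each animal had 2 arrays, 30 in all.

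CCN2 is a secreted matricellular protein: it sits in the matrix without being a structural part of it, binds integrins, heparan sulfate and growth factors, and is a known target of TGF-beta and of the YAP and TAZ coactivators of the Hippo pathway. In many organs it accompanies collagen deposition by fibroblasts. MGP is a small secreted protein that needs vitamin K for the carboxylation of its glutamate residues, inhibits calcification of soft tissue and binds bone morphogenetic proteins. Fibrillar collagens such as types I and III, and the microfibril-forming type VI, are made mainly by stromal cells.

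Values are log ratios between the tissues, taken as log2, and which tissue stands above the line is not settled. Positive and negative therefore name a side of the deposited ratio, not a tissue, and a ratio gives no level in either tissue. Over all probes the mean ratios of SCNT and IVF-ET animals correlated at r = 0.45, whereas those of AI animals ran against SCNT (r = -0.29) and IVF-ET (r = -0.27), so AI means are given as deposited and with the sign turned. An array had 26744 to 27643 usable spots, and the 2 arrays of an animal correlated over probes between r = -0.32 and 0.65. This r was below 0 in AI replicates 1, 2, 4 and 5 and IVF-ET replicates 2, 3, 4 and 5, and above 0 in every SCNT animal. It was lowest, at -0.32, in IVF-ET replicates 3 and 4. With the mean effect of dye orientation on each probe taken off, r was 0.02, 0.05, 0.14 and 0.05 in AI replicates 1, 2, 4 and 5. In IVF-ET replicates 2, 3, 4 and 5 it was then -0.05, -0.39, -0.01 and 0.02, so replicate 3 alone stayed far below 0. Dyes were exchanged between the arrays of 14 animals. IVF-ET replicate 3 carried the same dye labels on both arrays, which opposed each other, and it was left out of group means. It was kept wherever a comparison is made within an array, since turning an array turns both genes. In tissue pieces, a change in the share of a cell type and a change in RNA per cell cannot be told apart.

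CCN2 lay on the positive side on all 10 SCNT arrays and on all 8 arrays of the 4 IVF-ET animals with exchanged dyes. Its animal means were 0.95, 1.07, 1.04, 1.06 and 1.78 in SCNT replicates 1 to 5. In IVF-ET replicates 1, 2, 4 and 5 they were 1.68, 0.66, 1.30 and 1.42. The AI animals, replicates 1 to 5, were at -0.67, -1.02, -0.55, -0.91 and 0.71. As deposited, all 9 SCNT and IVF-ET animals in the group means were above 0, which 2.27% of the 13818 probes were. AI replicates 1 to 4 were below 0, while AI replicate 5 lay above IVF-ET replicate 2 and below every SCNT animal. CCN2 was picked on these group means, so the separation restates that choice. With the AI sign turned, the AI animals were at 0.67, 1.02, 0.55, 0.91 and -0.71, and 3 of 5 lay within the range of the SCNT and IVF-ET animals, so the separation rests on the side as deposited. The group means were 1.18 ± 0.34 in SCNT (SD, n = 5), 1.26 ± 0.43 in IVF-ET (SD, n = 4) and -0.49 ± 0.69 in AI (SD, n = 5), or 0.49 with the AI sign turned. Read as log2, the first 2 means are 2.26-fold and 2.40-fold ratios between the tissues. SCNT minus AI was 1.67 as deposited and 0.69 with AI turned. IVF-ET minus AI was 1.75 as deposited and 0.78 with AI turned. Among 13818 probes, CCN2 had the 13th most positive mean in SCNT and the 3rd in IVF-ET, which restates how it was picked.

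The SCNT means of CCN2 were closely spaced apart from replicate 5. Replicates 1 to 4 lay between 0.95 and 1.07, and replicate 5, at 1.78, also had the most negative collagen median (-1.66). The AI mean rests on animals of 2 kinds. In AI replicates 2, 3 and 4 both arrays were negative, from -1.09 to -0.23. In replicate 1 the arrays were at 1.14 and -2.48, and in replicate 5 at 1.79 and -0.38, so those means average opposed arrays. Across all 15 animals, both arrays of CCN2 lay on 1 side in 12, and the 3 with opposed arrays were AI replicates 1 and 5 and IVF-ET replicate 3 (-1.96 and 2.02).

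**Figure D1:**
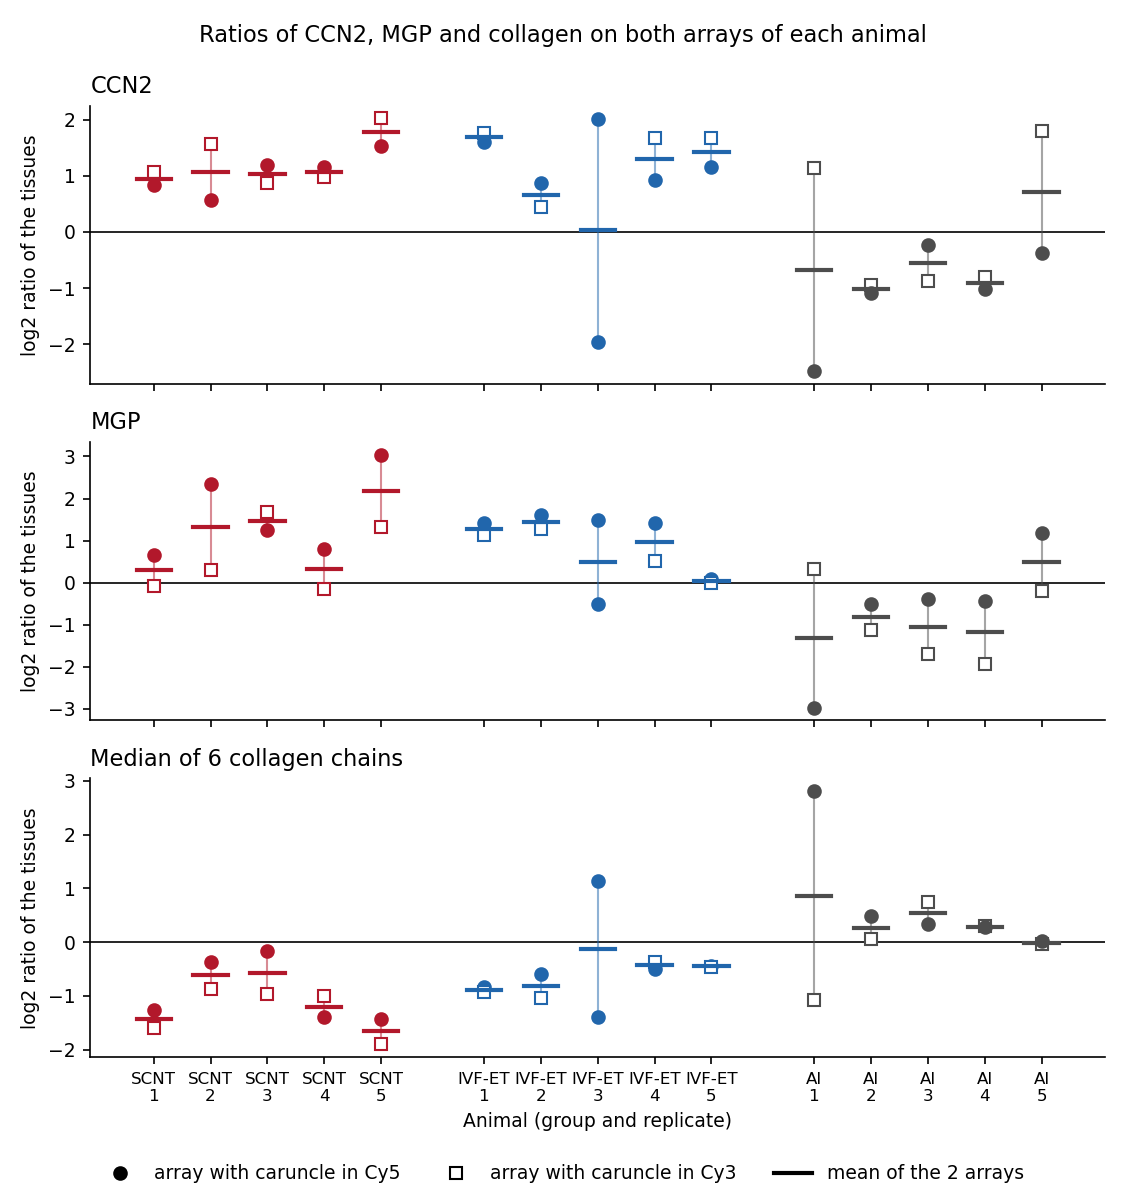
Log2 ratios of CCN2, MGP and the median of 6 collagen chains (y axes) on both arrays of each animal (x axis), with SCNT in red, IVF-ET in blue and AI in grey; circles and squares mark the dye orientation and bars the mean of the 2 arrays. CCN2 lay above 0 and collagen below 0 on all 10 SCNT arrays, and arrays that opposed each other for CCN2 also opposed each other for collagen.

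MGP lay on the same side as CCN2 in SCNT and IVF-ET animals, with a wider spread. Its SCNT animal means were 0.29, 1.32, 1.46, 0.32 and 2.18 in replicates 1 to 5. The IVF-ET animals were at 1.27, 1.44, 0.97 and 0.04 in replicates 1, 2, 4 and 5. In AI replicates 1 to 5 the means were -1.32, -0.82, -1.04, -1.18 and 0.49. All 9 SCNT and IVF-ET animals were above 0, which 2.27% of the 13818 probes were, and 4 of 5 AI animals were below 0 as deposited. With the AI sign turned, 4 of 5 AI animals were above 0, and the same 4 lay within the range of the SCNT and IVF-ET animals. The means were 1.12 ± 0.81 in SCNT (SD, n = 5), 0.93 ± 0.63 in IVF-ET (SD, n = 4) and -0.77 ± 0.73 in AI (SD, n = 5), or 0.77 with AI turned. SCNT minus AI was 1.89 as deposited and 0.34 with AI turned. IVF-ET minus AI for MGP was 1.70 as deposited and 0.16 with AI turned.

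The spread of MGP was seen between arrays as well as between animals. Its 2 spots correlated at r = 0.97 over 30 arrays, against r = 0.99 for CCN2, and they differed by a median of 0.13 for MGP and 0.09 for CCN2. On 4 arrays the 2 spots of MGP had opposite signs, as on none for CCN2. Between the arrays of an animal the gaps were larger: MGP was at 2.35 and 0.30 on the arrays of SCNT replicate 2, and at 3.04 and 1.31 on those of SCNT replicate 5. Both arrays of MGP lay on 1 side in 9 of 15 animals.

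Part of the MGP ratio followed the dyes. For the 14 animals with exchanged dyes, the array with caruncle in Cy5 minus the array with caruncle in Cy3, divided by 2, was above 0 for MGP in 12, with a median of 0.41. For CCN2 the same quantity was below 0 in 10 of 14 animals, with a median of -0.12. On average over these animals the effect was 0.29 for MGP and -0.28 for CCN2. In size these lay at percentiles 95.8 and 95.1 of all probes, whose median was 0.09. The CCN2 average leaned on AI replicates 1 and 5, at -1.81 and -1.08, whose arrays opposed each other. All other animals lay between -0.49 and 0.33 for CCN2. For MGP, AI replicate 1 stood at -1.65, against the sign of the MGP average. MGP in SCNT animals averaged 1.62 ± 1.03 on arrays with caruncle in Cy5 and 0.61 ± 0.84 on arrays with caruncle in Cy3 (SD, 5 arrays each), and in IVF-ET animals 1.13 ± 0.71 and 0.73 ± 0.59 (SD, 4 arrays each). CCN2 in SCNT animals averaged 1.05 ± 0.36 and 1.30 ± 0.48 in the same order, and in IVF-ET animals 1.14 ± 0.33 and 1.39 ± 0.63. The positive side of both genes in SCNT and IVF-ET therefore held for the mean of each dye orientation. In AI animals CCN2 averaged -1.04 ± 0.89 with caruncle in Cy5 and 0.06 ± 1.30 with caruncle in Cy3, and MGP -0.62 ± 1.49 and -0.92 ± 0.97 (SD, 5 arrays each).

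**Figure D2:**
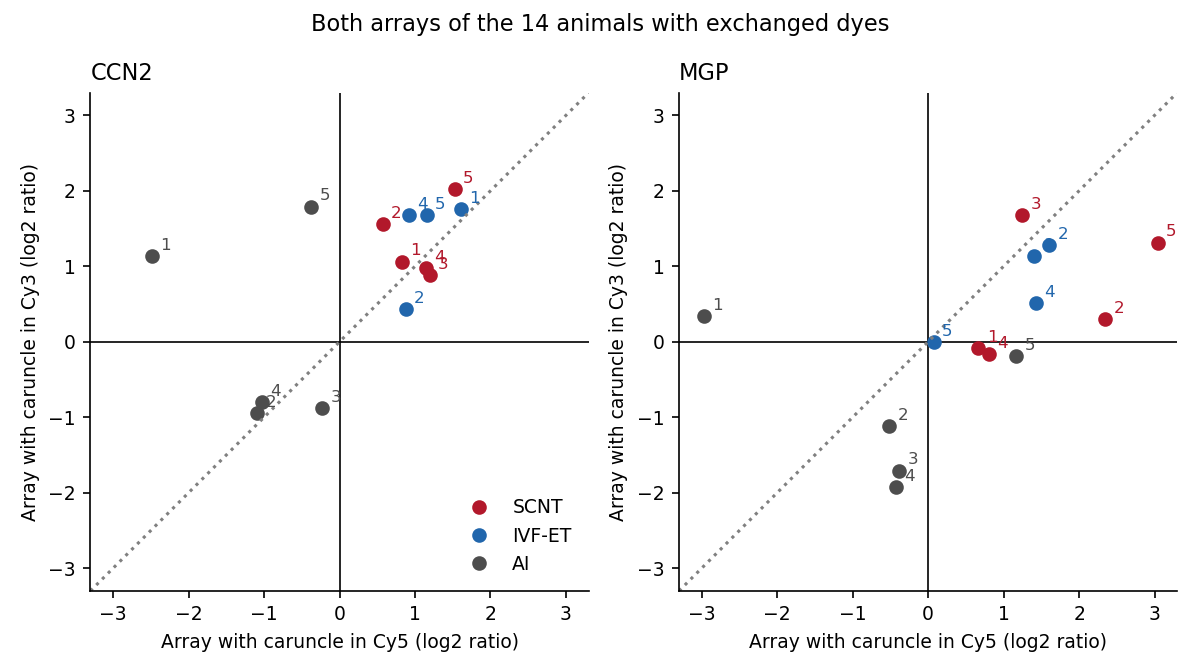
Log2 ratios of CCN2 and MGP on the array with caruncle in Cy5 (x axis) against the array with caruncle in Cy3 (y axis) for the 14 animals with exchanged dyes; numbers are replicates, colours are groups and the dotted line marks equal values. CCN2 of the 9 SCNT and IVF-ET animals sits in the upper right quadrant, and MGP lies below the line in 12 of 14 animals.

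The comparison with collagen describes the side of the genes of 2 secreted matrix proteins against the structural matrix. That side was part of how they were picked, so the counts and shares restate it and carry no test. Of 8 fibrillar and type VI chains looked for, COL1A1, COL1A2, COL3A1, COL6A1, COL6A2 and COL6A3 were on the array, and their median on each array served as the collagen direction. It was negative on all 10 SCNT arrays, from -1.90 to -0.17. On the 10 IVF-ET arrays it was negative on 9, and on the 10 AI arrays on 2. CCN2 took the opposite sign to that median on 30 of 30 arrays. Only 6 of the 13789 probes with values on at least 28 arrays did so (0.0435%), and the named ones were CCN2, RNF149, DYNLRB2 and LOC613966. This count does not change with the side of any array, and it held on each opposed pair: in AI replicate 1 CCN2 was at 1.14 and -2.48 while collagen was at -1.08 and 2.81, and in IVF-ET replicate 3 CCN2 was at -1.96 and 2.02 while collagen was at 1.14 and -1.40. On 2 AI arrays the collagen median was so near 0 (-0.04 and 0.01, both of replicate 5) that its sign is loosely fixed. CCN2 was opposite on 28 arrays with its first spot alone, 29 with arrays not centred and 28 against the fibrillar chains alone. As first counted, 37 probes stood at 28 arrays and 28 probes at 29, so the share of 0.0435% holds for the exact count of 30 only. The distance between CCN2 and the collagen median had a median size of 2.27 in SCNT, 2.09 in IVF-ET and 1.44 in AI arrays.

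MGP took the opposite sign to collagen on 25 of 30 arrays: 8 of 10 in SCNT, 9 of 10 in IVF-ET and 8 of 10 in AI. At least as many were reached by 2.33% of probes. The 5 exceptions were the second arrays of SCNT replicates 1 and 4 and of IVF-ET replicate 5, with MGP at -0.08, -0.16 and -0.01, and both arrays of AI replicate 5. With the dye effect taken off each array, MGP was opposite on 29 and CCN2 on 28 of 30 arrays. That turns the order of the genes, so no difference between them is read from these counts.

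**Figure D3:**
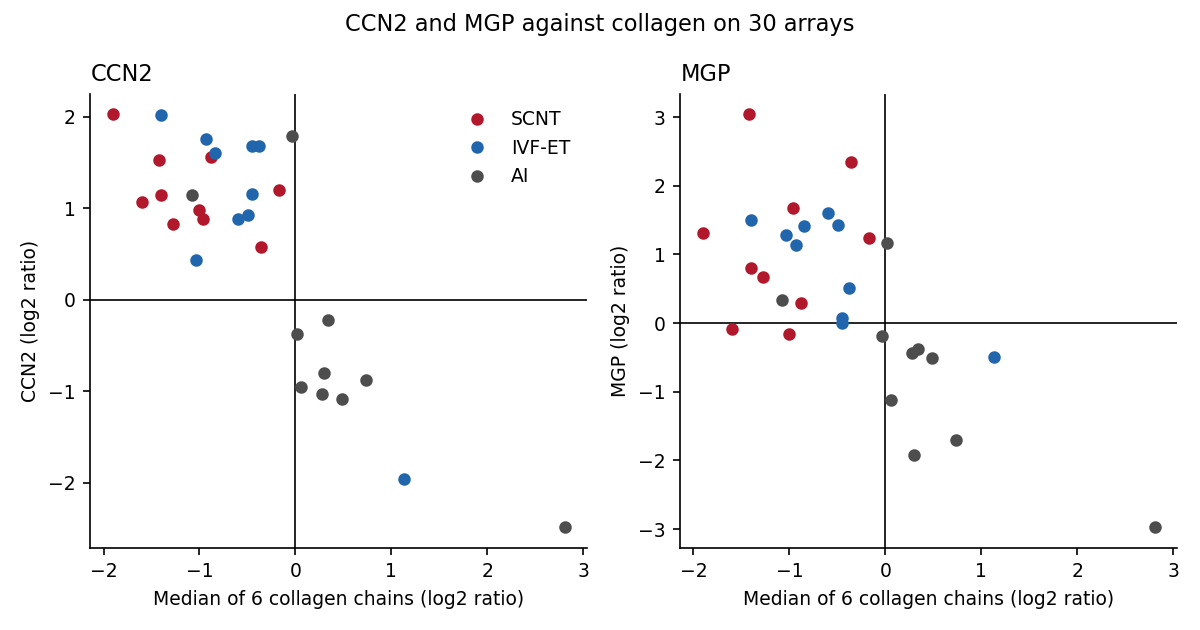
CCN2 (left) and MGP (right) against the median of 6 collagen chains, all as log2 ratios, 1 point per array and 30 arrays, coloured by group. All CCN2 points lie in the upper left and lower right quadrants, where the gene and collagen have opposite signs, against 25 of the 30 MGP points.

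**Figure D4:**
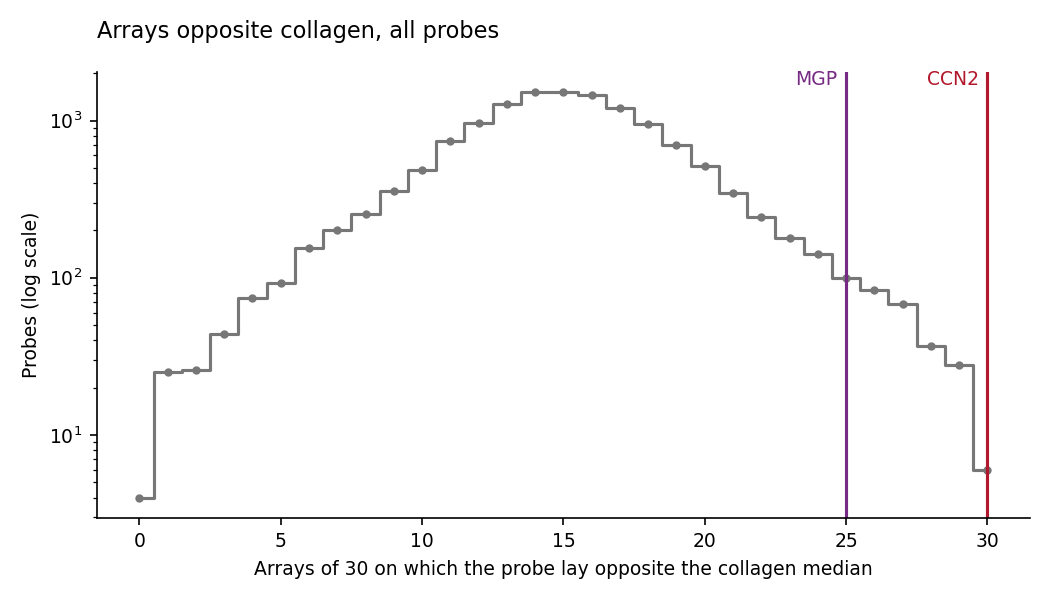
Number of probes (y axis, log scale) by the number of arrays on which a probe lay opposite the collagen median (x axis), for the 13789 probes with values on at least 28 of 30 arrays. CCN2 stands at 30 arrays with 5 other probes, and MGP at 25.

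Single collagen chains differed in how far they opposed the genes. COL6A3, a chain of the microfibrillar type VI collagen, was opposite CCN2 on 30 of 30 arrays and COL3A1 on 28 of 29. COL1A2 was opposite on 27, COL6A1 on 26 and COL1A1 on 24 of 30 arrays. MGP was opposite COL6A3, COL3A1 and COL1A1 on 25 arrays each, COL1A2 on 24 and COL6A1 on 21. COL6A2 was opposite CCN2 on 20 and MGP on 15 arrays. The 2 probes of COL6A2 disagreed in size, at -0.10 and -1.08 in SCNT animals, and the second, which was not used for the median, was opposite CCN2 on 25 and MGP on 22 arrays. COL6A3 averaged -1.69 ± 0.53 in SCNT (SD, n = 5), -0.92 ± 0.37 in IVF-ET (SD, n = 4) and 0.68 ± 0.54 in AI (SD, n = 5).

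For neither gene was a difference of SCNT from IVF-ET animals detectable with these numbers of animals. The difference SCNT minus IVF-ET in the ratio was -0.09 for CCN2, with a 95% interval from -0.73 to 0.55 and an adjusted p of 0.979 (limma, Benjamini-Hochberg). For MGP it was 0.19, from -0.70 to 1.07, with an adjusted p of 0.963 (limma). Differences of 0.55 either way for CCN2, or 1.07 upward for MGP, remain inside these intervals. The spread behind them is shared with the AI animals. Fitted to SCNT and IVF-ET animals alone, the CCN2 difference had an SE of 0.22 in place of 0.30 (adjusted p = 0.95, limma). For MGP the SE was 0.41 in place of 0.42 (adjusted p = 0.937, limma). By limma no probe passed an adjusted p of 0.05 in this comparison (0%), and 609 of 13818 had an unadjusted p under 0.05 (4.41%).

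CCN2 and MGP had the same sign on 25 of 30 arrays, and on 27 with the dye effect taken off. Likeness was measured as the uncentred correlation over the 30 arrays, which is 1 where ratios are proportional, -1 where they are proportional with opposite sign, and unmoved by turning an array. The points are 2 arrays for each of 15 animals and share hybridisations, so it is a description. Between CCN2 and MGP it was 0.71, or 0.79 with the dye effect taken off. Among 8060 named genes MGP came 111th in likeness to CCN2, and CCN2 came 37th in likeness to MGP. With the collagen median, CCN2 stood at -0.86 and MGP at -0.75.

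The genes most like CCN2 were HPGD, the enzyme that inactivates prostaglandins (0.90), the tight junction protein OCLN (0.89), the haem synthesis enzyme ALAD (0.87), the signal peptidase subunit SEC11C (0.87) and the epithelial transcription factor KLF5 (0.87). Most opposite were COL6A3 (-0.91), the endoplasmic reticulum peroxidase GPX8 (-0.90), the retinol transporter STRA6 (-0.89), the microfibril protein MFAP2 (-0.86) and the secreted WNT inhibitor SFRP1 (-0.86). The sign of SFRP1 was that of CCN2 on 0 of 29 arrays, while that of OCLN was the same on 29 of 30. Ratios of OCLN were smaller, at a mean of 0.52 in SCNT, 0.37 in IVF-ET and -0.22 in AI animals.

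For MGP the most alike were the corepressor CTBP2 (0.82), LRRFIP1 (0.82, 1 of 3 probes), the mitochondrial fatty acid importer CPT1A (0.81), the corepressor TLE1 (0.80) and HPGD (0.80). The most opposite were the chondroitin polymerising factor CHPF (-0.85), the metalloproteinase inhibitor TIMP1 (-0.82), the proteoglycan SDC2 (-0.79), STRA6 (-0.79) and PLD3 (-0.79). HPGD and STRA6 were thus on both lists. With the dye effect taken off, HPGD stood at 0.85 and STRA6 at -0.85 with MGP.

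Of the genes in the pathways around CCN2, 1 passed a test, the proteoglycan DCN, a binding partner that is also on the stromal fibroblast list. It passed on the negative side and in the mean over SCNT and IVF-ET animals. Counts are given for SCNT animals alone and for that mean, in which 1.62% of all probes passed as positive and 1.74% as negative by limma. Over these pathway lists together, 1 pass is no more than those shares give, so it is not read as a result about them. CCN3 was the other CCN family gene on the array, of 6 looked for, and its means were -0.07 in SCNT, -0.13 in IVF-ET and -0.01 in AI animals. Of 9 measured Hippo pathway genes, 0 passed in the mean and 0 in SCNT animals by limma, where, for SCNT, 1.85% of all probes passed, 0.789% positive and 1.06% negative. Known targets of YAP and TAZ in that list include ANKRD1, AMOTL2 and the receptor kinase AXL. They averaged 0.01, 0.06 and -0.28 over SCNT and IVF-ET animals. Of 20 measured genes of TGF-beta and BMP signalling, 0 passed in either. The largest means over SCNT and IVF-ET were those of the ligand BMP4 (-0.40), the coreceptor TGFBR3 (-0.33), the HLH repressor ID2 (0.32) and LTBP3, which binds latent TGF-beta (0.31). The ligands TGFB1, TGFB2 and TGFB3 averaged -0.03, -0.17 and -0.02. The median of the list was -0.03 in SCNT and -0.05 in IVF-ET animals, against 0.00 in each for all probes tested. Of 11 receptors and binding partners of CCN2, 0 passed in SCNT animals alone and 1 in the mean over SCNT and IVF-ET animals, DCN, at -0.70 (adjusted p = 0.032 with limma, against 0.0558 in SCNT alone). Among those that did not pass, the mean was -0.56 for the endocytic receptor LRP1, -0.22 for the integrin chain ITGB5 and 0.10 for the proteoglycan ACAN.

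Genes that share the vitamin K chemistry of MGP did not pass, in SCNT animals or in the mean over SCNT and IVF-ET. This held for the 7 other measured Gla proteins by limma. Over all probes 1.85% passed in SCNT animals, and 1.62% as positive and 1.74% as negative in that mean. At those shares lists this short may hold no passing gene, so nothing is read from the absence. The coagulation factor F9 averaged 0.21 over SCNT and IVF-ET animals, the protein C cofactor PROS1 -0.20, prothrombin F2 -0.16 and F10 -0.12. Osteocalcin, BGLAP, the small bone Gla protein, was at 0.05 in SCNT, 0.08 in IVF-ET and -0.03 in AI animals. Of the 5 measured genes of carboxylation and propeptide cleavage none passed. The carboxylase GGCX averaged 0.03 and the vitamin K reductase VKORC1 0.05, both on the log2 ratio scale. Among the 10 other calcification regulators none passed either, with SPP1 (osteopontin) at -0.48, the alkaline phosphatase ALPL at 0.23 and the pyrophosphate exporter ANKH at -0.14.

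Among other matricellular genes, those that passed lay on the collagen side. Of 12 measured, 2 passed on the negative side in SCNT animals, tenascin TNC (-0.58 ± 0.11, SE, adjusted p = 0.0173 with limma) and SMOC2 (-0.70 ± 0.13, SE, adjusted p = 0.0144 with limma), and 10 did not pass. SPARC, a collagen-binding protein, was at -0.60 in SCNT and -0.43 in IVF-ET animals, and SPARCL1 at -0.70 and -0.57, without passing in either group. In the mean over both, SPARC (-0.51, adjusted p = 0.0287) and SPARCL1 (-0.63, adjusted p = 0.0262) passed by limma, so 4 of 12 passed there, all negative. The list had a median of -0.42 in SCNT animals and a median likeness of -0.51 to CCN2 and -0.38 to MGP. Of its 12 genes, 2 had a likeness to CCN2 above 0, THBS1 (0.28) and SMOC1 (0.13).

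Most epithelial markers ran with both genes, and most stromal fibroblast markers ran against them. Of 22 measured epithelial genes, 21 had a likeness to CCN2 above 0 (median 0.64) and 20 to MGP (median 0.47), against 6486 and 6667 of 13789 probes (medians -0.02 and -0.02). In SCNT animals 4 of them passed on the positive side, the cytoskeletal linker EZR (0.98), the junction proteins CGN (0.66) and OCLN (0.52), and the desmosomal DSP (0.63), and 18 did not pass. In the mean over SCNT and IVF-ET 8 of 22 passed, all positive, with CDH1, KRT8, ESRP1 and SPINT2 added. The list median per animal ran from 0.12 to 0.54 in SCNT, from 0.19 to 0.72 in IVF-ET and from -0.53 to 0.19 in AI animals. Of 15 stromal fibroblast genes, 1 had a likeness to CCN2 above 0, S100A4 (0.47), and the median was -0.53 (-0.39 to MGP). The surface protein THY1 (-0.97) and the repressor SNAI2 (-0.67) passed on the negative side in SCNT animals, and 13 did not pass. In the mean over SCNT and IVF-ET 4 of 15 passed, all negative, with DCN and MFAP4 added. The list median per animal ran from -0.41 to 0.00 in SCNT, from -0.36 to -0.11 in IVF-ET and from -0.03 to 0.44 in AI animals. The part of these markers in the ratios of CCN2 and MGP was not tested.

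Median likeness to CCN2 was nearer 0 for markers of other cells. Of 12 smooth muscle genes 1 had a likeness to CCN2 above 0, with a median of -0.38, and the largest means over SCNT and IVF-ET were those of TAGLN (-0.37) and TPM1 (-0.30). Medians were 0.03 for 12 endothelial, -0.02 for 13 leukocyte and -0.20 for 10 trophoblast genes, and 0.29 for 9 gland genes. Gland genes did not run 1 way: over SCNT and IVF-ET CLU averaged 0.60, MUC1 0.49 and PIGR 0.47, but SPP1 -0.48. SERPINA14 (0.03) and LIFR (-0.02) were near 0. In that mean CLU (adjusted p = 0.00653) and PIGR (adjusted p = 0.0127) passed by limma, and no other gene of these 5 lists did. In SCNT animals alone none of the 5 lists had a gene that passed. In IVF-ET animals no probe of any list passed (0% of 13818 by limma, with 7.94% at an unadjusted p under 0.05). The trophoblast gene PAG2 was at -1.04 in SCNT and -0.18 in IVF-ET animals, and TKDP1 at -1.08 and -0.09, and neither difference passed (limma).

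**Figure D5:**
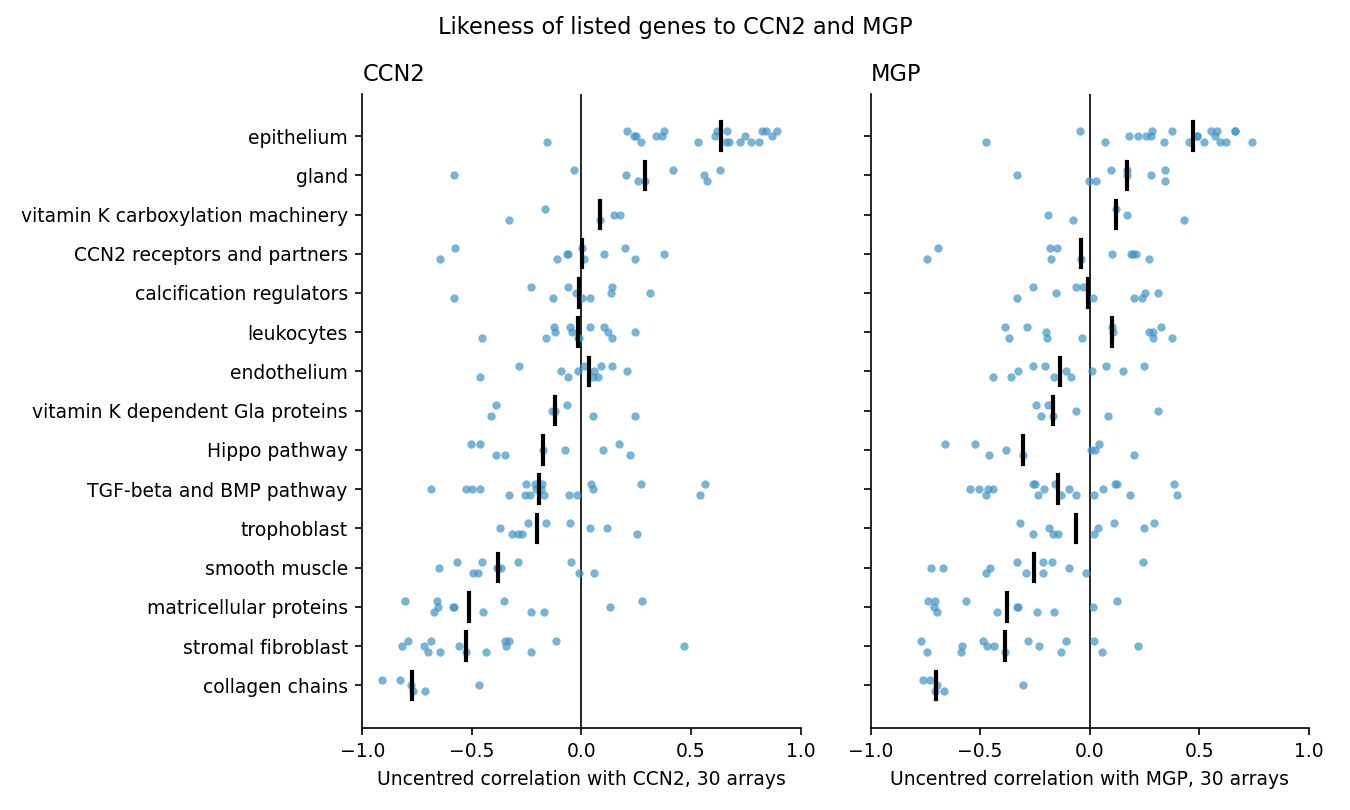
Uncentred correlation over 30 arrays (x axis, no unit) of each listed gene with CCN2 (left) and MGP (right), with lists down the page, a dot per gene and a bar at the list median. Epithelial genes have medians of 0.64 and 0.47, and collagen chains, the lowest list, -0.77 and -0.70.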

How the data were processed

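Per the labels' protocols, RNA of each tissue was turned into aminoallyl cDNA and coupled to Cy3 (channel 1) or Cy5 (channel 2). The deposited values are log ratios already normalised by the authors and are taken here as log2. The sources used here do not give the log base, the normalisation or the channel order, and scanner signals were not used here. Each array was centred on its median and the 2 adjacent spots of a probe were averaged, which shared an accession in 8750 of 8750 annotated pairs. Of 13824 probes, 8645 had 1 symbol, 105 several and 5074 none. The dye effect of a probe, the mean over 14 animals of the difference between dye orientations divided by 2, was taken off before the arrays of an animal were averaged. limma 3.58.1 in R 4.3.3 then fitted a mean per group over 14 animals (lmFit, eBayes, two-sided, Benjamini-Hochberg over 13818 probes with at most 1 missing animal per group), which was tested on simulated data. Values were plotted with Python 3.11.15 and matplotlib 3.10.9. The number of animals limits the precision.

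The members and gene lists were chosen with earlier results of these data known. Named genes were the members, the collagen chains, list members past the threshold or with the largest means over SCNT and IVF-ET animals, and the 5 genes most like and most opposite to each member. Counts in the mean over SCNT and IVF-ET were added after the values were seen. RNF149, DYNLRB2, LOC613966 and single genes given for their role were named after their values were seen. Where probes shared a symbol, the one with values on most arrays was used. Alternatives were the dye effect, the reading of the values, the left-out animal, centring, single spots, the filter, the animals fitted, arrays with the animal as a random block, the AI sign and leaving out each animal.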

Additional observations from a re-analysis of the deposited data

Results flagged for a closer look

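Among 27 sets of animal means checked (2 members, the collagen median and 6 chains in 3 groups), 4 held an animal far from the others, and chance alone gives about 1 such set in 20. CCN2 was at 1.78 in SCNT replicate 5, against 0.95 to 1.07 in the other 4 SCNT animals. COL6A1 was at -3.13 in the same animal, whose arrays had the highest correlation with each other over all probes (r = 0.65). In AI replicate 5, CCN2 was at 0.71 and MGP at 0.49, while the other 4 AI animals were below 0 for both genes. Its 2 arrays opposed each other for both, at 1.79 and -0.38 for CCN2 and at -0.19 and 1.17 for MGP.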

How the results depend on the processing

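The ratios rest on 14 animals, on 1 probe per gene, and on values taken as already turned to the tissues. Read instead as dye ratios, the means were -0.12 for CCN2 in SCNT and -0.12 in IVF-ET, and 0.51 for MGP in SCNT, 0.20 in IVF-ET and 0.15 in AI. With the AI sign turned, its means were 0.49 for CCN2 and 0.77 for MGP. With IVF-ET replicate 3 kept as the plain mean of its arrays, SCNT minus IVF-ET for CCN2 was 0.11 (adjusted p = 0.965, limma). With its second array turned it was 0.56 (adjusted p = 0.863, limma). That put the IVF-ET means at 0.61 for CCN2 and 0.54 for MGP, and the MGP difference at 0.57. With its first array turned instead, the IVF-ET means were 1.41 for CCN2 and 0.94 for MGP. SCNT minus IVF-ET was then -0.23 for CCN2 (adjusted p = 0.921, limma) and 0.17 for MGP. The cause was not tested. Leaving out 1 animal at a time gave 1.03 to 1.24 for CCN2 in SCNT, 1.13 to 1.47 in IVF-ET and -0.79 (without AI replicate 5) to -0.36 in AI. For MGP it gave 0.85 to 1.32, 0.76 to 1.23 and -1.09 to -0.64. SCNT minus IVF-ET then ran from -0.29 to 0.052 for CCN2, above 0 (0.052) without IVF-ET replicate 1, and from -0.11 to 0.39 for MGP, below 0 without IVF-ET replicate 5 (-0.11) or SCNT replicate 5 (-0.08). Of the 28 arrays left each time, those opposite collagen numbered all 28 for CCN2 and 23 to 25 for MGP. Of 250 alternative values, 238 kept their direction and, for group means, moved by less than 1 SD between animals, for differences, stayed above the threshold of the adjusted p, or, for counts of arrays, stayed within 1.5 times. Many of these 250 could not change, so the 238 are no measure of stability. Leaving out an animal of another group leaves a group mean where it was. Leaving the dye effect in does the same, as both orientations are averaged. Dropping 1 animal takes 2 arrays from a count, too few to pass 1.5 times. No alternative gave an adjusted p under 0.846 for SCNT minus IVF-ET (limma). In 2 alternatives chosen after seeing the data, CCN2 was opposite collagen on 20 of the 20 SCNT and IVF-ET arrays and MGP on 17, and on 24 and 21 of 24 arrays without the 3 animals whose arrays opposed each other for CCN2. Each array already pairs the 2 tissues of an animal. Animals could not be paired between groups because the replicate numbers name different animals in each group.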

Other observations

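Osteopontin, SPP1, a secreted phosphoprotein of the matricellular, gland and calcification lists, was the listed gene with the largest difference between SCNT and IVF-ET animals, at 1.08 ± 0.32 (SE). Its means were 0.06 in SCNT, -1.03 in IVF-ET and 0.17 in AI animals. The difference did not pass (adjusted p = 0.915, limma).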
